A study of Mus musculus with 4 samples.

Results

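The CD300 receptors are a family of cell surface proteins with a single immunoglobulin-like domain outside the membrane. Their genes form a cluster on mouse chromosome 11. Described here are 7 of them (Cd300a, Cd300lf, Cd300c, Cd300c2, Cd300lb, Cd300ld and Cd300e) among the 49490 genes of the table. The family was picked because Cd300c was much higher in the libraries labelled Irf8 knockout. The values that chose it are those of the contrast described here, so the members' values are a description and carry no p-value.

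The study sequenced polyadenylated RNA of CD8+ T cells taken from spleens and lymph nodes of mice and activated in culture. It asked which genes depend on IRF8, a transcription factor best known for its part in myeloid and dendritic cell development. There were 2 libraries labelled Irf8 knockout (Irf8-/-) and 2 labelled WT, which the study's design describes as carrying the floxed allele (Irf8 fl/fl). The Cre driver, the strain, age and number of mice, the purity of the T cells and the way they were activated do not stand in the sources used here. Nothing in the labels says that replicates came from separate mice or cultures, so p-values reflect the scatter among these 4 libraries, which could be technical only.

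Each library held between 58899365 and 59724952 reads assigned to genes, recovered from the deposited normalized counts. Irf8 had 89508 and 90222 normalized counts in the libraries labelled knockout, against 6364 and 6081 in those labelled WT. It was 14.4-fold higher in the libraries labelled knockout (log2 fold change 3.85, SE 0.04, limma adjusted p = 4.32e-08), which goes against the label. Gene-level counts do not show which exons the reads cover, and no cause of this was tested. A swap of labels or columns was not tested either, and with one every direction given here would turn around. Directions below are therefore those of the labels, libraries labelled knockout over libraries labelled WT. Of 18378 genes tested, 3662 (19.9%) were called higher and 2469 (13.4%) lower at a limma adjusted p under 0.05. With libraries centred on their median gene, the median log2 fold change of all genes lies at -0.28 rather than 0.02, and 2389 were called higher and 7210 lower. Leaving out replicate 1 labelled knockout left 2210 called higher and 1552 lower, and leaving out replicate 2 labelled knockout left 2195 and 1540.

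CD300 receptors are known mainly from myeloid cells, where they bind lipids exposed on the outer face of membranes. Members with a long cytoplasmic tail carry inhibitory motifs (ITIMs) whose phosphorylated tyrosines recruit the phosphatase SHP-1. Members with a short tail have no signalling motif of their own and pass the signal on through adaptor proteins, DAP12 (Tyrobp) or the Fc receptor gamma chain (Fcer1g), which engage the kinase Syk.

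The reading frames of the family show the same division. In the longest open reading frame of the GENCODE M21 transcripts, Cd300a encodes 318 residues, with 114 after the hydrophobic segment and 2 ITIM-like motifs among them. Cd300lf encodes 337 residues, with 127 after that segment and also 2 ITIM-like motifs. The other 5 members have between 3 and 33 residues there and 0 ITIM-like motifs. A basic residue, a feature through which short-tailed receptors can pair with adaptors such as DAP12, lies in the segment of Cd300c, Cd300c2, Cd300lb and Cd300e. That of Cd300ld holds an acidic residue instead, and pairing with adaptors was not tested for any member. The proteins of Cd300c and Cd300c2 are the closest pair, with identical residues at 71.9% of the shorter protein's length, while Cd300a and Cd300lb are the most distant at 27.1%.

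Among the long-tailed members, Cd300a (ENSMUSG00000034652.12) lies at chr11:114890041-114904654 on the plus strand of GRCm38 (mm10). Its product binds phosphatidylserine and phosphatidylethanolamine on dying cells. It had 3824 and 4011 normalized counts in the libraries labelled knockout and 169 and 135 in those labelled WT. Both libraries labelled knockout were far above both labelled WT, and the groups did not overlap. The means were 3918 ± 132 and 152 ± 24.2 normalized counts (SD, n = 2 each), a ratio of 25.8 (95% interval 23.0 to 29.0 from counting error alone).

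Cd300lf (ENSMUSG00000047798.15), at chr11:115116214-115133992 on the minus strand, encodes a receptor for ceramide and phosphatidylserine that murine norovirus uses to enter cells. It had 2957 and 3143 normalized counts in the libraries labelled knockout and 132 and 141 in those labelled WT. As for Cd300a, the groups lay far apart. The means were 3050 ± 132 and 137 ± 6.09 normalized counts (SD, n = 2 each), a ratio of 22.3 (95% counting interval 19.8 to 25.3). The gene lies inside Rab37, which runs on the opposite strand, and their annotations share 0 exon bases.

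Among the short-tailed members, Cd300c (ENSMUSG00000058728.14), at chr11:114956116-114969157 on the minus strand, differed most. It had 7308 and 7043 normalized counts in the libraries labelled knockout and 10.2 and 9.19 in those labelled WT. In reads these were 7458 and 7236 against 10 and 9, so the gene was near its detection limit in both libraries labelled WT. It passed the filter on low values through the libraries labelled knockout. The ratio of the means was 741 (95% counting interval 474 to 1231), and its log2 fold change of 9.39 ranked 6 of the 18378 genes tested.

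Cd300c2 (ENSMUSG00000044811.13), at chr11:114996721-115001880 on the minus strand, encodes the receptor also called MAIR-II, which pairs with DAP12. It had 1203 and 1205 normalized counts in the libraries labelled knockout and 170 and 244 in those labelled WT. The groups did not overlap, and the libraries labelled WT differed more between themselves than those labelled knockout. The ratio of the means was 5.82 (95% counting interval 5.24 to 6.48), and the gene was well detected in every library.

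Cd300ld, a short-tailed member at chr11:114982274-114989922, had 123 and 131 normalized counts in the libraries labelled knockout and 71.2 and 98.0 in those labelled WT. The groups did not overlap, at a ratio of 1.5. Cd300lb, a DAP12-pairing member at chr11:114922781-114934386, had 42.1 and 79.8 normalized counts in the libraries labelled knockout and 49.9 and 54.1 in those labelled WT. These groups overlapped, the libraries labelled knockout spanning both labelled WT. Its log2 fold change of 0.16 turned to -0.14 under median centring. Cd300e, at chr11:115051917-115062177, had 7 and 12 reads in the libraries labelled knockout and 7 and 12 in those labelled WT. At this depth no difference was detectable for it.

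By the limma fit, 4 of the 7 members (Cd300a, Cd300lf, Cd300c and Cd300c2) were called higher and 0 lower, beside 19.9% and 13.4% of all genes tested. In 5 of the 7, the 4 called and Cd300ld, both libraries labelled knockout lay above both labelled WT, beside 36.5% of all genes tested. Since the family was selected on this contrast, nothing is read from these shares.

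**Figure D1:**
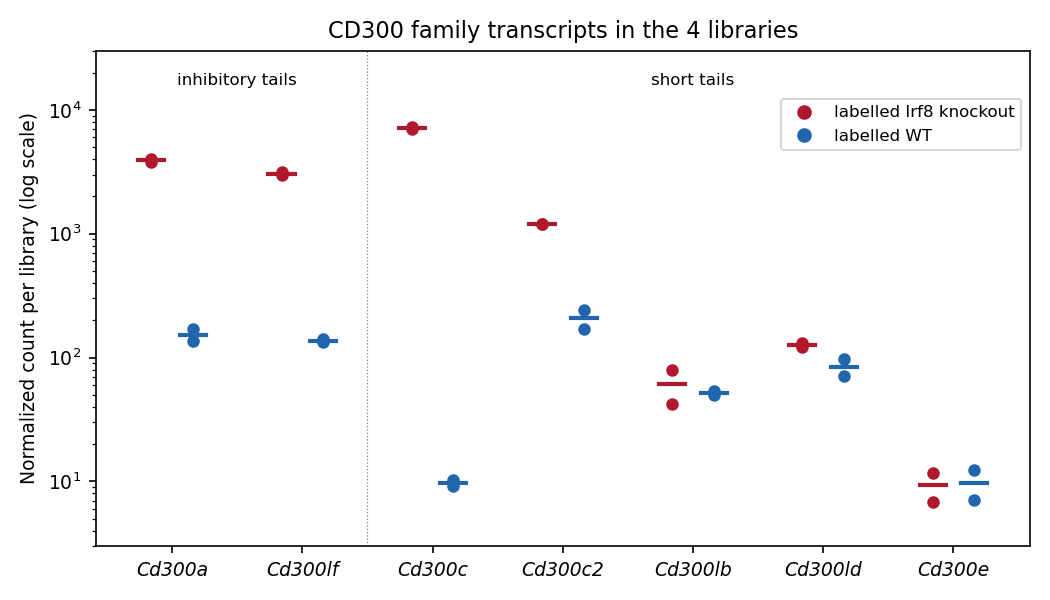
Normalized counts (log axis) of the 7 CD300 genes in each library, the libraries labelled knockout left of those labelled WT, with points for libraries and bars for group means. Cd300c lies at 7308 and 7043 in the libraries labelled knockout against 10.2 and 9.19 in those labelled WT, while Cd300lb and Cd300e overlap.

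The family's make-up differed as well as its level. Divided by exon length, the 7 members summed to 9251 and 9098 normalized counts per kb in the libraries labelled knockout and to 252 and 317 in those labelled WT. Cd300c made up 74.2% and 72.7% of that sum in the libraries labelled knockout and 3.8% and 2.72% in those labelled WT. Cd300c2 made up 10.2% and 10.4% in the libraries labelled knockout and 53.0% and 60.3% in those labelled WT. Per kb, the leading member was thus Cd300c in both libraries labelled knockout and its closest relative, Cd300c2, in both labelled WT. Without division by length, Cd300c averaged 46.2% in the libraries labelled knockout and 1.5% in those labelled WT, and Cd300c2 7.75% and 31.5%. On that scale Cd300a (25.2%) and Cd300lf (19.6%) stood above Cd300c2 in the libraries labelled knockout. In replicate 1 labelled WT, Cd300c2 (27.9%) and Cd300a (27.7%) were nearly level. The ratio of Cd300c to Cd300c2 per kb was 7.27 and 7.0 in the libraries labelled knockout and 0.0717 and 0.0451 in those labelled WT.

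Cd300a over Cd300lf per kb was 1.41 and 1.39 in the libraries labelled knockout and 1.39 and 1.04 in those labelled WT. By level per kb, the order in the libraries labelled knockout was Cd300c (mean 6738), Cd300c2 (944), Cd300a (827), Cd300lf (592), Cd300ld (48.0), Cd300lb (20.9) and Cd300e (4.44), with no overlap between neighbours in that order. In the libraries labelled WT it was Cd300c2 (162), then Cd300a (32.1), Cd300ld (32.0) and Cd300lf (26.5), whose libraries overlap or nearly touch, then Cd300lb (17.8), Cd300c (9.09) and Cd300e (4.64). The median gene lay at 174 and 174 per kb in the libraries labelled knockout and 151 and 152 in those labelled WT. Only Cd300c2 in 1 library labelled WT exceeded that median among the members in that group.

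**Figure D2:**
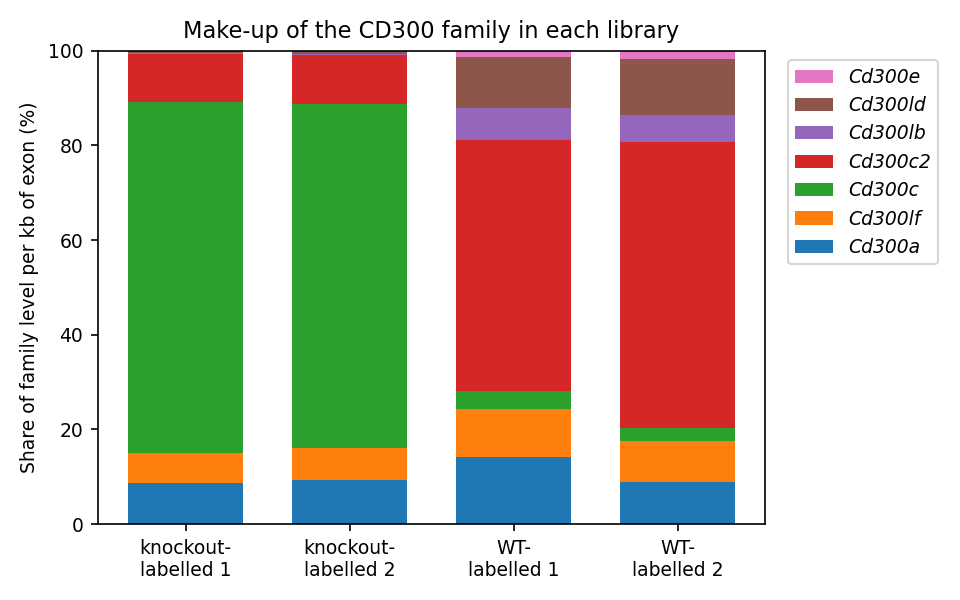
Share of the family's summed normalized counts per kb of exon (percent) held by each member, 1 bar per library, the libraries labelled knockout left of those labelled WT. Cd300c holds 74.2% and 72.7% in the libraries labelled knockout, and Cd300c2 holds 53.0% and 60.3% in those labelled WT.

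The promoters of the 4 members that were higher are shown because these genes were high together, and IRF8 and its partner PU.1 bind DNA at known core sequences. Each window runs from base -250 to base 49 around the RefSeq start, counting the start base as 0, on GRCm38.p6 (RefSeq), read 5′ to 3′ on the gene's strand. All 7 members matched a RefSeq promoter. Capitals mark matches on either strand to GAAANNGAA (an interferon response core), GGAANNGAA (a composite ETS and IRF core) and GAGGAAG (a PU.1 core), none of which overlap each other here.
Cd300a, chr11:114889791-114890090, plus strand: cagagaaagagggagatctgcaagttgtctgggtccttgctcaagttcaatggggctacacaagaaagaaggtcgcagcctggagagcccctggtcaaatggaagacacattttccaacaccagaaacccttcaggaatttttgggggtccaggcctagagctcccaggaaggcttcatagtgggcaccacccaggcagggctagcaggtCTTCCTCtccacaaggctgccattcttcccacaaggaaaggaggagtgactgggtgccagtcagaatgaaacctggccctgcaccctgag
Cd300lf, chr11:115133943-115134242, minus strand: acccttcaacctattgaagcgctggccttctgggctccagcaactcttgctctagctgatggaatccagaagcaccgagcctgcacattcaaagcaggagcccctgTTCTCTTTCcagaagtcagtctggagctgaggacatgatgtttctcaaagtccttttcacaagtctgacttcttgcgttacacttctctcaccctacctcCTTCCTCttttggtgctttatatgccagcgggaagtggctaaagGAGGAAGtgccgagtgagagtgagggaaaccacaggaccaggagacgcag
Cd300c, chr11:114960458-114960757, minus strand: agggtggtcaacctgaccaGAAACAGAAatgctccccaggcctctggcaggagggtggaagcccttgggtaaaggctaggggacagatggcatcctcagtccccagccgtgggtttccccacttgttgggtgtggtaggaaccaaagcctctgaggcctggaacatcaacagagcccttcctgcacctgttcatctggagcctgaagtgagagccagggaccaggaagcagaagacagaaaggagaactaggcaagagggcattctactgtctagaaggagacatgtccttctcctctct
Cd300c2, chr11:115001831-115002130, minus strand: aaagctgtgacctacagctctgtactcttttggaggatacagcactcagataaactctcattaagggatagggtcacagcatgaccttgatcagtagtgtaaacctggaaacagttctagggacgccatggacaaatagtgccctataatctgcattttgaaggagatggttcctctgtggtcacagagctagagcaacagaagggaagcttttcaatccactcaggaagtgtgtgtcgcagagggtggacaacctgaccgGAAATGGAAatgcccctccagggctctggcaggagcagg

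GAAANNGAA was found in 3 of the 7 members' windows (Cd300c, Cd300c2 and Cd300lf) and in 8.56% of all 32851 promoters. It lay at bases -231 to -223 in Cd300c, 11 to 19 in Cd300c2 and, on the strand opposite to the gene, -144 to -136 in Cd300lf. GAGGAAG was found in 3 of the 7 (Cd300a, Cd300lf and Cd300ld) and in 13.6% of all promoters, and GGAANNGAA in 0 of the 7 and in 8.24%. Of other cores searched on both strands, TGTGGT (RUNX) was in 3 members and 16.8% of promoters. CAGCTG and CAGGTG, both E-boxes, were in 1 member each and in 16.3% and 20.2% of promoters. TTGCNNAA (C/EBP) was in 1 member and 10.8%, and TATAAA in 2 members and 13.6%. A match describes letters and not a bound site.

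The windows of Cd300c and Cd300c2 share a stretch of 54 aligned positions, 47 of them identical (87.0%). It holds the GAAANNGAA match of both, but lies at bases -250 to -198 in Cd300c and at -8 to 45 in Cd300c2. The RefSeq start of Cd300c lies inside the gene as GENCODE annotates it, whose longest transcript starts at 114969157, so its window depends on the annotation used.

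Within 500 kb of the cluster, which spans 244 kb, 27 other genes were tested. Of these, 2 were called higher and 9 lower, beside 19.9% and 13.4% of all genes tested, with a median log2 fold change of 0.08. Gprc5c, an orphan G protein-coupled receptor gene that begins 38.9 kb before Cd300a, rose most. It had 2401 and 2726 normalized counts in the libraries labelled knockout and 36.6 and 21.4 in those labelled WT, a ratio of 88.3 (log2 fold change 6.46, SE 0.26, limma adjusted p = 1.12e-05). Nat9, an N-acetyltransferase gene, also rose, with 642 and 642 normalized counts in the libraries labelled knockout and 471 and 460 in those labelled WT (log2 fold change 0.46, limma adjusted p = 0.0152).

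Rab37, a small GTPase gene that encloses Cd300lf, fell by 0.63 on the log2 scale (limma adjusted p = 1.73e-04). It had 3058 and 3083 normalized counts in the libraries labelled knockout and 4763 and 4731 in those labelled WT. Cd300lf and the gene around it thus moved in opposite directions. Of the other neighbours that fell, Armc7 had a log2 fold change of -0.74, Kif19a of -0.62 and Hid1 of -0.46. Sumo2, Atp5h, Mrpl58, Slc9a3r1 and Nt5c lay between -0.32 and -0.25. Members that were called and members that were not lie interleaved, with Cd300lb and Cd300ld on either side of Cd300c.

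**Figure D3:**
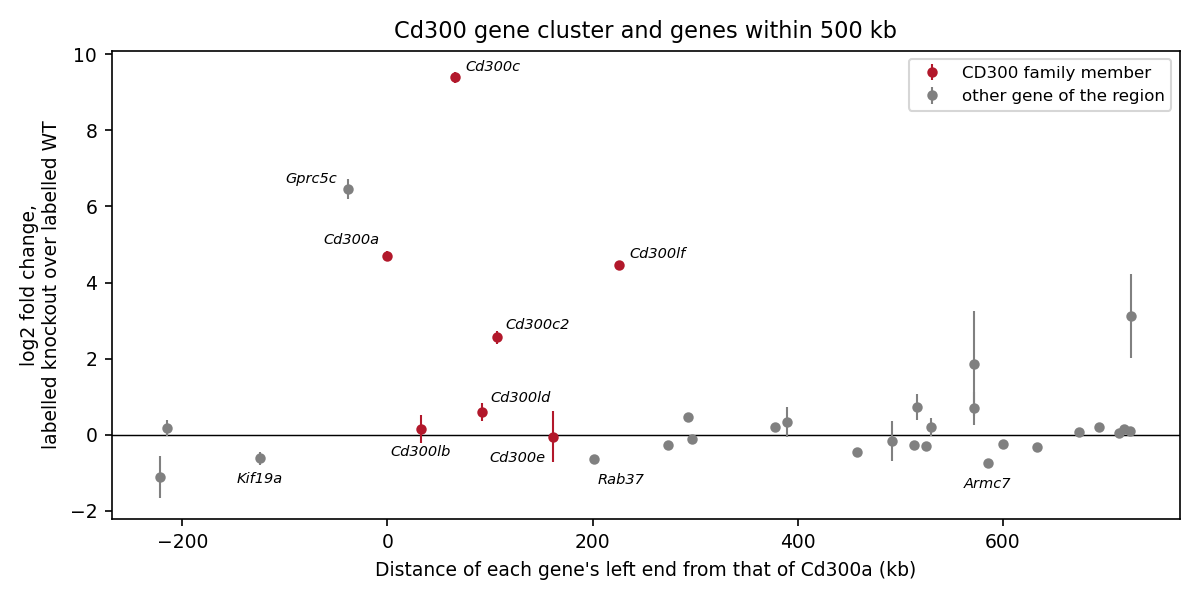
Log2 fold change (libraries labelled knockout over labelled WT) of the tested genes in and around the CD300 cluster, with bars for the SE, against the distance of each gene's left end from that of Cd300a in kb. Cd300c at 9.39, Gprc5c at 6.46, Cd300a at 4.69 and Cd300lf at 4.47 stand above neighbours whose median is 0.08.

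A further 5 Cd300 genes are annotated, and the table holds them at very low counts. Cd300lg, which lies elsewhere on chromosome 11 and encodes an endothelial adhesion receptor, had 38 and 28 reads in the libraries labelled knockout and 12 and 0 in those labelled WT (limma adjusted p = 0.0938). Cd300ld2 had 5 and 10 reads in the libraries labelled knockout and 0 and 0 in those labelled WT. Cd300ld3, Cd300ld4 and Cd300ld5 had at most 5 reads in any library labelled knockout and at most 11 in any labelled WT. These 4 were too low to test.

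Near-identical copies make some of these counts uncertain. Of all 50-base windows in its transcripts, Cd300ld5 shares 100% with other genes, Cd300ld4 93.8%, Cd300ld3 82.1% and Cd300ld2 31.0%. For the members the share is much smaller, at 7.16% for Cd300c2 (all with Cd300a), 3.89% for Cd300ld, 3.45% for Cd300a and 2.44% for Cd300lf. Cd300c, Cd300lb and Cd300e share 0 windows.

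The signalling partners of the short-tailed receptors differed in the same libraries. Tyrobp, which encodes DAP12, had 48485 and 49111 normalized counts in the libraries labelled knockout and 1414 and 1379 in those labelled WT. It rose 35-fold (log2 fold change 5.13, SE 0.04, limma adjusted p = 4.32e-08). Fcer1g, the Fc receptor gamma chain, had 17711 and 17827 against 2637 and 2680 in the libraries labelled WT, and rose 6.69-fold (limma adjusted p = 2.23e-07). Syk, the kinase both adaptors engage, had 7610 and 7966 normalized counts against 149 and 164 in the libraries labelled WT, a ratio of 49.8 (limma adjusted p = 2.62e-07).

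Of 28 genes of activating signalling, 17 rose and 7 fell, beside 19.9% and 13.4% of all genes tested. Their median log2 fold change was 0.88, beside 0.02 over all genes tested. Under median centring 15 rose and 11 fell. Lck, Zap70 and Lcp2, which signal below the T cell receptor, fell by 0.59, 0.57 and 0.53 on the log2 scale (limma adjusted p = 3.57e-05, 3.59e-05 and 1.13e-04). Fyn, another kinase of that receptor, rose by 0.46 (limma adjusted p = 1.90e-04). Per kb, Tyrobp averaged 73160 ± 664 in the libraries labelled knockout and 2093 ± 37.2 in those labelled WT (SD, n = 2 each). Both levels are far above those of the receptors that pair with it.

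Genes of inhibitory signalling, a list broader than the partners of the long-tailed receptors, moved in both directions. Of 13 genes of inhibitory signalling, 3 rose and 5 fell (2 and 9 under median centring), beside 19.9% and 13.4% of all genes tested. Their median log2 fold change was 0.05. Ptpn6, which encodes SHP-1, had 38129 and 39219 normalized counts in the libraries labelled knockout and 25434 and 24400 in those labelled WT (log2 fold change 0.63, limma adjusted p = 4.24e-05). Inppl1, a lipid phosphatase, rose by 1.16 (limma adjusted p = 4.27e-05). Cbl, a ubiquitin ligase, rose by 0.30 (limma adjusted p = 0.00570), a direction that turns to -0.0023 under median centring. Dok2, Ubash3a and Ubash3b, which damp antigen receptor signalling, fell by 0.58, 0.59 and 0.47. Ptpn11 and Inpp5d, which encode SHP-2 and SHIP-1, did not pass the test (limma adjusted p = 0.195 and 0.242).

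Genes that expose, recognise or make the receptors' lipid ligands held calls in both directions. Over all genes tested, 19.9% were called higher and 13.4% lower, with a median log2 fold change of 0.02. Of 17 tested genes of phosphatidylserine exposure and recognition, 5 rose and 3 fell, with a median log2 fold change of -0.08. Under median centring 4 rose and 10 fell, and 2 rose when either library labelled knockout was left out. Among them Lrp1 rose by 1.43 and Pros1, a bridging protein, by 2.30. Timd4 had 84.3 and 53.5 normalized counts in the libraries labelled knockout and 0 and 0 in those labelled WT, at least 22.5-fold higher against a floor of 3 reads per library. Havcr2 (TIM-3), Axl and Tyro3 fell by 0.63, 0.47 and 0.53. Of 16 tested genes of sphingolipid metabolism, 3 rose and 3 fell (3 and 9 under median centring), with a median of 0.03. Asah1, an acid ceramidase that breaks down ceramide, had 5544 and 5554 normalized counts in the libraries labelled knockout and 1834 and 1836 in those labelled WT (limma adjusted p = 4.24e-06). Cers6 and Asah2 rose by 1.8 and 1.54, and Ugcg, Cers4 and Smpd1 fell by 0.26, 0.31 and 0.37.

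Of 26 tested receptors of myeloid cells outside the family, most of them immunoglobulin-like and 2 (Clec4a2 and Clec7a, neither called) C-type lectins, 13 rose and 3 fell (13 and 6 under median centring), with a median log2 fold change of 1.44. Sirpa, an inhibitory receptor for CD47, had 10943 and 10408 normalized counts in the libraries labelled knockout and 446 and 421 in those labelled WT. Pirb, an inhibitory receptor for MHC class I, and Treml2 rose by 3.68 and 2.45. Fcgr1, Trem2 and Lilrb4a fell by 1.56, 1.42 and 0.18. Of 17 transcription factors of myeloid and dendritic cells, 10 rose, Irf8 itself among them, and 3 fell (9 and 4 under median centring), with a median of 1.28. Gata2, like Cd200r3 and Fcer1a of the receptor list, was called higher from 0 in both libraries labelled WT. These genes passed the filter through the libraries labelled knockout. For both lists, the shares over all genes tested were 19.9% called higher and 13.4% lower. Bcl11a, which plasmacytoid dendritic cells need, rose by 8.55 and Tcf4, their lineage factor, by 6.04. Id2 and Runx3 fell by 0.70 and 0.13.

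**Figure D4:**
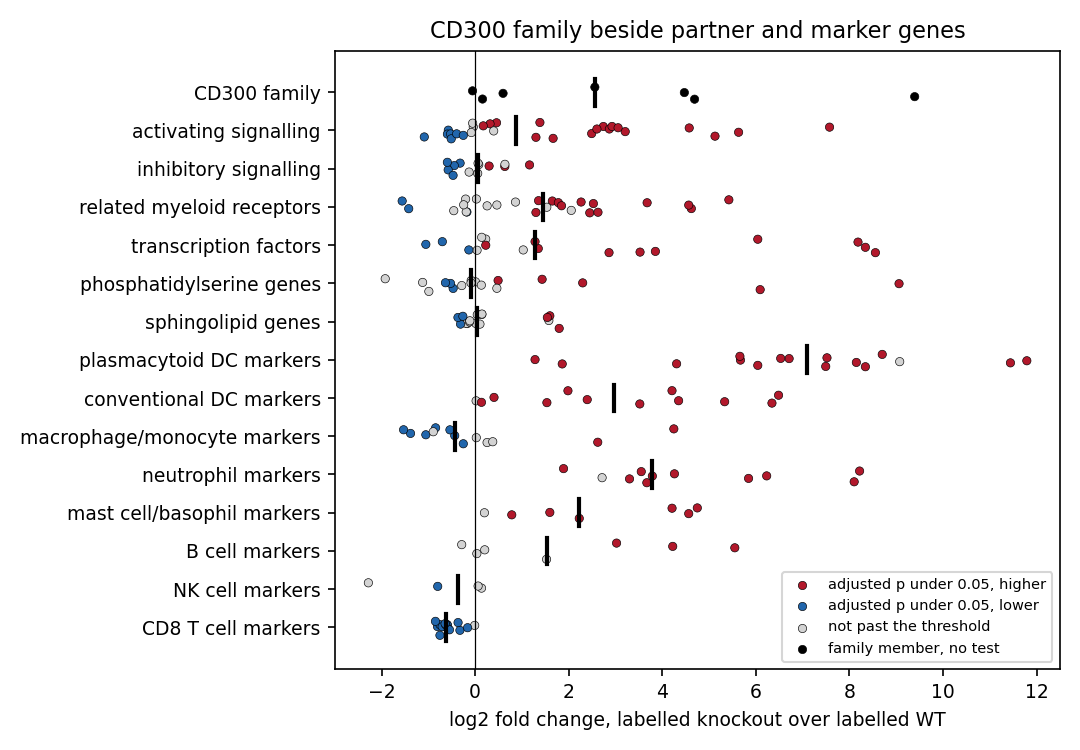
Log2 fold change (libraries labelled knockout over labelled WT) of each tested gene by list, with each list's median as a line, red and blue points past the threshold (higher and lower), and genes at 0 in the libraries labelled WT at fitted values that depend on the pseudocount. Medians lie at 0.88 for activating signalling, 7.10 for plasmacytoid dendritic cell markers and -0.61 for CD8+ T cell markers, beside 0.02 for all genes.

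Marker genes of other cells also differed between these libraries, in directions that depended on the list. Over all genes tested, 19.9% were called higher and 13.4% lower. Of 16 plasmacytoid dendritic cell markers, 15 were called higher, and their summed level was 301689 and 300502 normalized counts in the libraries labelled knockout and 18089 and 18072 in those labelled WT. Siglech, a surface marker of these cells, had 84171 and 84408 in the libraries labelled knockout and 210 and 194 in those labelled WT (limma adjusted p = 3.53e-08). Ccr9 and Pacsin1 rose by 5.67 and 4.31, and Cacna1e was at 0 in both libraries labelled WT. Of 12 conventional dendritic cell markers, 11 were called higher, with sums of 43051 and 43775 in the libraries labelled knockout and 16163 and 15623 in those labelled WT. Itgax made up most of the sums labelled WT, at 12573 and 12236, beside 13736 and 13503 in the libraries labelled knockout. Flt3, Clec10a and Ciita rose by 6.48, 5.33 and 4.21.

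The macrophage and monocyte list, whose cells are the best known source of CD300 receptors, moved in both directions. Of 13 tested, 2 were called higher (Cd68 and Cd163, by 2.62 and 4.25) and 7 lower, among them C1qb, Lyz2 and Ccr2. The sums were 48875 and 47321 in the libraries labelled knockout and 51178 and 51452 in those labelled WT. They follow the most abundant genes of the list. Ccr2 alone had 23122 and 22131 in the libraries labelled knockout and 31251 and 29996 in those labelled WT. Of 11 tested neutrophil markers 10 were called higher, with sums of 3506 and 3638 in the libraries labelled knockout and 233 and 286 in those labelled WT. Mpo, Elane and Camp were at 0 in both libraries labelled WT. Of 7 tested mast cell and basophil markers 6 were called higher, with sums of 1361 and 1234 in the libraries labelled knockout and 395 and 483 in those labelled WT. Of those called, Ms4a2, Prss34 and Fcer1a were at 0 in both libraries labelled WT and low in those labelled knockout. Every tested list gene at 0 in both libraries labelled WT passed the filter through those labelled knockout. Such a gene could only be called higher. Mcpt4 and Tpsab1 were at 0 in every library.

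Of 7 tested B cell markers 3 were called higher, with sums of 1416 and 1422 in the libraries labelled knockout and 312 and 283 in those labelled WT, where Ebf1 was at 0. Of 4 tested NK cell markers 0 were called higher and 1, Klrb1c, lower, with sums of 1211 and 1176 in the libraries labelled knockout and 1978 and 2129 in those labelled WT. Of 16 CD8+ T cell markers 15 were called lower, with sums of 671291 and 679960 in the libraries labelled knockout and 935144 and 928989 in those labelled WT. Cd3d, Cd3g and Cd8b1 fell by 0.81, 0.75 and 0.60, so the labelled cell type's markers stayed abundant in every library. In bulk RNA, fewer cells of a type and less RNA per cell cannot be told apart. The part of these other cells in the CD300 values was not tested.

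Predicted or clone-named gene models and antigen receptor segments were left out of a search for the genes nearest to Cd300c over the 4 libraries. By Euclidean distance of log2(value + 1), the nearest of the rest were Adam11 (1.57), Fads3 (1.85), Sh3bp4 (1.87), Pdzd4 (1.93) and Hs3st1 (2.06). Adam11, the nearest, had 7127 and 6438 normalized counts in the libraries labelled knockout and 22.4 and 21.4 in those labelled WT. No other CD300 gene was among these 5.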

How the data were processed

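Polyadenylated RNA of CD8+ T cells was sequenced as 4 libraries, grouped by their genotype labels. Trim Galore 0.4.4, HISAT2 2.2.1, StringTie 2.1.4, DESeq2 and the mm10 build are named per the submitters' processing notes. The sources used here do not give their settings, the gene annotation or whether strand was used. The authors deposited 1 column per library of normalized counts, a signal that is not whole-numbered, for 49490 genes. The deposited table also holds a log2 fold change, its Wald score and a p-value, whose sign is that of WT over knockout. These were not used for the values given here.

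Normalized counts were tested as log2(value + 1) with limma 3.58.1 (R 4.3.3), keeping genes at 10 or more in 2 libraries, with Benjamini-Hochberg adjustment over 18378 genes and a threshold of 0.05. The added 1 lowers the fold changes of low genes on this scale. Where 1 library of a group is at 0, as for Cd300lg, they can instead exceed the ratio of the means. An exact permutation test of 2 against 2 cannot go below p = 0.333. The values were whole multiples of 1 read, within 0.01 reads, for 100% of values, so reads were recovered and also tested with edgeR 4.0.16 and DESeq2 1.42.0. On those reads edgeR called 3691 genes higher and 2652 lower, and DESeq2 called 3494 higher and 2549 lower. Intervals (95%) and the floor of 3 reads cover counting error only. Levels were divided by GENCODE M21 exon length, which was matched for 95.2% of genes. The fit was also run on simulated data with far fewer changed genes than were called here. That run therefore does not measure how reliable these calls are.

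Members and gene lists were chosen with earlier results of these data known. Genes named are Irf8, the members and other Cd300 genes, and called genes within 500 kb. From each list come up to 3 called genes in each direction by smallest adjusted p. Also named are the 5 genes nearest to Cd300c, with predicted or clone-named models and antigen receptor segments left out. Fyn, Ptpn11, Inpp5d, Clec4a2, Clec7a, Itgax, Cacna1e and genes at 0 were named after their values were seen. A gene that the rule names is not reported here. Alternatives were the division by length, the pseudocount, the filter, the scaling, the count tests, the replicate block and leaving out each library.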

Additional observations from a re-analysis of the deposited data

How the results depend on the processing

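Cd300a, Cd300lf, Cd300c and Cd300c2 kept their direction under every alternative run. Their log2 fold changes were 4.39 to 4.85, 4.17 to 4.52, 8.51 to 9.52 and 2.26 to 2.82. Every run refitted the contrast that selected the family, so these ranges show dependence on settings only. Cd300ld ranged from 0.30 to 0.82 and was called only without WT replicate 2, which made 5 members called. Cd300lb ranged from -0.30 to 0.61 and Cd300e from -0.41 to 0.29. Cd300e, at 7 to 12 reads a library, was removed by the filter of 50 and without Irf8_KO replicate 2 or WT replicate 2. Median centring gave 2389 genes higher and 7210 lower. Leaving out 1 library gave 2195 to 4193 genes higher and 1540 to 2818 lower. The lowest counts came without either library labelled knockout (2210 and 1552 without replicate 1, 2195 and 1540 without replicate 2), the lone library then being assumed to vary like the other group. With the replicate block the counts were 3415 higher and 2168 lower, with 4 members called, and 76 genes over the lists of partners, ligand genes, related receptors and transcription factors, against 75 without it, and it changed no member's call. Same-numbered libraries deviated with a correlation of 0.0172 over 18378 genes. That value cannot show whether they shared a mouse, culture or day, which the labels do not give.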
